A study of Mus musculus with 17 samples.

Results

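The cytosolic ribosomal protein genes of mouse neural retinal progenitor cells (mNRPCs) were analysed over a week of culture with or without a growth factor and a small molecule. They were chosen by symbol: Rpl or Rps followed by a number and at most 1 of the letters a, x, y or l, together with Rpsa, Rplp0, Rplp1 and Rplp2. The rule found 81 of the 18836 genes listed in the files. Of these, 77 had a mean of at least 1 FPKM (a read density scaled to transcript length and to the depth of the library) and were tested, 31 of the small and 46 of the large ribosomal subunit. The other 4 are named further on with their values.

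The cells were a culture established from the neural retina of adult mice (strain C57BL/6) in a basic medium with both bFGF and CHIR99021, and poly(A) RNA was sequenced. Whether the culture was clonal was not given in the sources used here. Cells were then kept in 1 of 4 media: BM (basic medium alone), B (BM with bFGF, basic fibroblast growth factor), C (BM with CHIR99021, an inhibitor of glycogen synthase kinase 3) and BC (BM with both). There was 1 library of each medium on each of days 1, 3, 5 and 7, and 1 library of day 0, so 17 in all. The labels give no treatment for day 0, and the study describes these cells as a control kept in BM, for a time not given in the sources used here. No medium and day was replicated, so each test below takes its error from how the 16 cultured libraries depart from the fitted model and not from repeated cultures.

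Ribosomal proteins assemble with ribosomal RNA into the small and large subunits of the ribosome, and growing cells spend a large share of their transcription and translation on them. Their mRNAs typically begin with a C followed by a run of pyrimidines, the terminal oligopyrimidine (TOP) start, through which the mTOR pathway and the RNA-binding protein LARP1 set their translation and stability. Growth factors raise ribosome production in proliferating progenitors, and cells that leave the cycle lower it.

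The libraries were of even depth, from 17571973 to 19428744 expected counts. The labelled cell type was only partly borne out by its markers: Pax6, Six3, Sox2 and Nes were present in every library, whereas the retinal transcription factors Six6 and Rax reached at most 0.03 and 0.07 FPKM. Summed markers of rods, pigment epithelium, leukocytes and endothelium stayed at or below 2.48 FPKM in every library, those of neurons at 1.84 to 9.52 FPKM without bFGF and 4.72 to 7.41 with it, and those of Mueller glia and astrocytes at 12.6 to 18.9 and 15.6 to 32.6 FPKM. The lens markers listed, among them Crybb2, summed to 0 to 41.2 FPKM without bFGF, the highest in C on day 7, and to at most 0.15 FPKM with it. The 3 fibroblast markers (Col1a1, Dcn, Pdgfra) summed to 2.5 to 54.2 FPKM in libraries without bFGF and to 1.58 to 6.79 FPKM in libraries with it, and the 8 progenitor markers to 139 to 353 and 75.8 to 202 FPKM. Their part in the results was not tested. In these bulk libraries, fewer cells of a type and less RNA per cell cannot be told apart.

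The starts of some members as RefSeq (GRCm38.p6) annotates them are shown because the TOP start is the sequence feature these mRNAs are known for. Each line holds 30 bases, 10 before and 20 from the annotated start, and capitals mark a C at the start with the pyrimidines that follow it without a break. Rpl28 and Rpl38 had the largest bFGF effect on day 7, Rplp2 encodes a protein of the ribosomal stalk, Rps27 and Rps27l are paralogs with different time courses, and most reads of Rps6 were assigned to a predicted copy. Neither of the Rps27l starts listed held such a run. The listed starts of Rps27l and Rpl38 lie inside their annotated loci, which begin upstream at chr9:66944624 and chr11:114667818, and the sequence at those outer starts was not used here.
Rpl28 (chr7:4792955-4792984, plus strand): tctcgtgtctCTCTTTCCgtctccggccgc
Rpl38 (chr11:114668570-114668599, plus strand): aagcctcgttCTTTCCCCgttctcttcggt
Rplp2 (chr7:141447641-141447670, plus strand): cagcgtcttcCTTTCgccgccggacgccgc
Rps27 (chr3:90213629-90213658, minus strand): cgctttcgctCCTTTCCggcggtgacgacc
Rps6 (chr4:86857348-86857377, minus strand): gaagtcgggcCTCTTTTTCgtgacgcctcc
Rps27l, first listed start (chr9:66946076-66946105, plus strand): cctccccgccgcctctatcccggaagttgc
Rps27l, second listed start (chr9:66946403-66946432, plus strand): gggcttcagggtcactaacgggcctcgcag

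The set of RefSeq starts used here covered 61 of the 81 members. A gene with several listed starts counted below if any of them had the feature. A C at the annotated start followed by at least 4 bases that are each C or T was found in 14 of the 61 (23.0%), against 813 of 27025 genes of all kinds (3.01%). The letters CTTTCC, chosen after the data were seen, lay within 50 bases of the start on the strand of the gene in 19 members (31.1%) against 5.43% of all genes, and on the other strand in 1 member (1.64%) against 5.12%. The letters can fall within such a start, as in Rpl28 and Rpl38 above. A start annotated a few bases away from the one in use hides the run, so the shares describe this annotation. Among tested members the median log2 fold change with bFGF on day 7 was 2.51 in the 13 with such a start and 2.35 in the 44 without one, and among other genes it was near 0 with one (255 genes) and without (8741 genes).

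Ribosomal protein mRNAs declined together without bFGF and were held and then raised with it. The median tested member was at 968 FPKM on day 0. Its levels in BM were 799, 473, 396 and 373 FPKM on days 1, 3, 5 and 7, and in C 859.9, 563, 425 and 426 FPKM. In B they were 825, 857, 998 and 1154 FPKM, and in BC 919.5, 950.0, 1057 and 1524 FPKM. From day 3 on, these median levels without bFGF were all below every one with bFGF. Of those with bFGF, the 2 of day 3 were below the day 0 median and the 4 of days 5 and 7 above it. Gene by gene, BC on day 3 was close to day 0. There 42 of 77 members were higher than on day 0 (36 after scaling to the median gene), and the median change in log2(FPKM + 1) was 0.04 (-0.0088 scaled). The median gene changed by 0.09 without scaling, more than the median member.

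**Figure D1:**
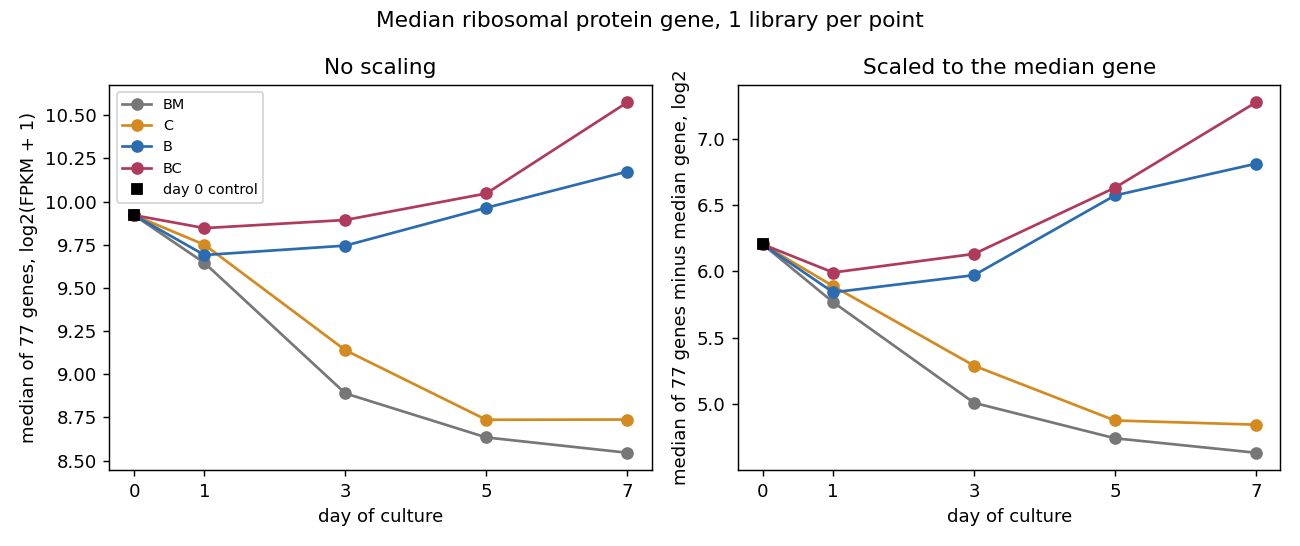
Median of the 77 tested ribosomal protein genes in each library against the day of culture, on the log2(FPKM + 1) scale (left) and after subtracting the median of all genes of that library (right). Lines join the 4 libraries of a medium, and the day 0 control is shared: BM and C descend to 373 and 426 FPKM on day 7, and B and BC climb to 1154 and 1524 FPKM, in the same order with and without scaling.

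Members took 5.81% (95% interval 5.80 to 5.82%) of all expected counts on day 0. In BM the share was 4.87%, 2.71%, 2.24% and 2.09% on days 1, 3, 5 and 7, and in C it was 5.42%, 3.30%, 2.42% and 2.39%. In B it was 5.24%, 5.23%, 6.04% and 7.00%, and in BC it was 5.78%, 5.94%, 6.57% and 9.28%. The BC library of day 7, at 9.28% (95% interval 9.27 to 9.30%), thus gave the members a larger share than the BM library of that day, at 2.09% (95% interval 2.08 to 2.10%). Intervals are Wilson intervals and cover counting error only.

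Against day 0, which has no test because each side is 1 library, the median member differed by -1.44 and -1.27 in BM and C and by 0.34 and 0.75 in B and BC on day 7 (log2(FPKM + 1)). At least 2-fold below day 0 were 74 of 77 members in BM (13% of all genes were) and 64 in C (13.9% of all genes). At least 2-fold above day 0 were 0 members in B (11.9% of all genes) and 18 in BC (12.1%). The median gene lay -0.27 and -0.33 from day 0 in B and BC, and after scaling to it the median member differed by 0.69 and 1.16. With that scaling 74 and 77 members were above day 0, against 65 and 73 without it. The share of all genes above day 0 is not given here, but without scaling the median gene lay below day 0 in both media.

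The bFGF effect was then tested on each day with edgeR's quasi-likelihood test (TMM normalization, Benjamini-Hochberg adjusted p over 11272 genes, threshold 0.05). The model had 8 cells, with and without bFGF on each day, and CHIR99021 as a term. On day 1 no member passed (background: 6.21% of all genes were called higher), although 77 of 77 fitted values lay above 0, 13 had an unadjusted p under 0.05 and the median was 0.18. The share of all genes with such an unadjusted p is not given here, so the 13 cannot be read against a background. DESeq2 called 0 members higher on day 1. On day 3, 75 members were higher with bFGF (background 25.4%), with a median of 0.97 on the log2 scale. On day 5 all 77 tested members were higher (background 37.2%), with a median of 1.88, and on day 7 again all 77 (background 38.8%), with a median of 2.44 and a range from 1.36 to 2.88. The median over all genes tested stayed between -0.02 and 0.04 on these days.

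Scaling set the size of these values but not the direction of their median. TMM divides by factors of 0.75 to 0.82 in B and BC on days 5 and 7 and of 1.08 to 1.13 in BM and C, which raises values with bFGF. On the log2(FPKM + 1) scale with no scaling (limma), the median member differed by 0.86, 1.42 and 1.89 on days 3, 5 and 7, with 74, 76 and 77 members called higher. On day 1 it differed by 0.10, and 72 of 77 mean differences lay above 0. In B over BM, 43.42% of all genes were higher on day 1 and 41.45% on day 3, and in BC over C 43.89% and 42.29%. The calls over all genes on day 3 without scaling are not given here. The median of all genes was -0.41 on day 5 and -0.48 on day 7. Without scaling the calls over all genes on day 7 were 2491 higher and 6598 lower, against 4370 and 4462 with TMM, and on day 5 they were 2422 and 6333 against 4192 and 4350.

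In the 6 libraries with bFGF of days 3 to 7, 73 of 77 members lay above every one of the 6 libraries without it, as did 11.9% of all genes. The 4 whose ranges overlapped were Rpl7, Rps3, Rps6 and Rps27l. Over days 1 to 7 together (model with bFGF, CHIR99021 and day), all 77 tested members were higher with bFGF (34.6% of all genes), with a median log2 fold change of 1.39. The calls over all genes in that model were 2289 higher and 5686 lower without scaling and 3896 higher and 3817 lower with TMM.

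The growth of the effect was tested directly. It was larger on day 3 than on day 1 for 72 members (13.4% of all genes), a comparison added after the values were seen. It was larger on day 7 than on day 1 for 77 (31.3%) and larger on day 7 than on day 3 for 77 (25.5%). The 5 members whose effect did not differ between days 1 and 3 at the threshold were Rpl7, Rps3, Rps6, Rps27 and Rps27l. Comparisons that share a day share its libraries. Over all genes, the calls for day 7 against day 1 were 2029 higher and 5788 lower without scaling and 3527 higher and 3844 lower with TMM, and for day 7 against day 3 1177 higher and 5393 lower without scaling and 2877 higher and 3078 lower with TMM.

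Without bFGF the fall came early. From day 1 to day 3, 69 members fell (background 32% of all genes), with a median log2 fold change of -0.75. From day 3 to day 5, 37 fell (background 5.15%), with a median of -0.38, a count that rests on single libraries: without BM day 3, C day 3, BM day 5 or C day 5 it was 6, 1, 7 or 0. From day 5 to day 7 no member passed (background 0.00887%), with a median of -0.08, 2 members at an unadjusted p under 0.05, and 0 called lower by DESeq2. Between days 1 and 7 all 77 tested members fell (background 31.5%), with a median of -1.15.

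With bFGF the levels changed little at first and rose late. From day 1 to day 3, 12 members rose (background 32.4%) and 5 fell (background 32.9%), with a median of 0.09. The 5 that fell were Rps27l, Rps2, Rpl8, Rpl14 and Rpl6, and the 12 that rose included Rpl13a, Rpl17, Rpl22, Rpl23, Rpl24, Rpl28, Rpl37a, Rps14, Rps20, Rps27 and Rps28. Both counts rest on single libraries: 3, 5 or 7 members rose without BC day 1, B day 3 or BC day 3 and 19 without B or BC of day 7, and 3 fell without B day 1 or BC day 3. From day 3 to day 5 all 77 tested members rose (background 29.4%), with a median of 0.54, but without scaling 26 did, with a median of 0.19, where the calls over all genes were 1391 higher and 5620 lower without scaling and 3317 higher and 3529 lower with TMM. From day 5 to day 7, 64 rose (background 19.1%), with a median of 0.48, and the count was 37 or 38 without the BC library of day 5 or of day 7. Between days 1 and 7 all 77 rose (background 35.8%), with a median of 1.08, against 68 and 0.63 without scaling, and the calls over all genes were 2457 higher and 6266 lower without scaling and 4032 higher and 4452 lower with TMM.

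**Figure D2:**
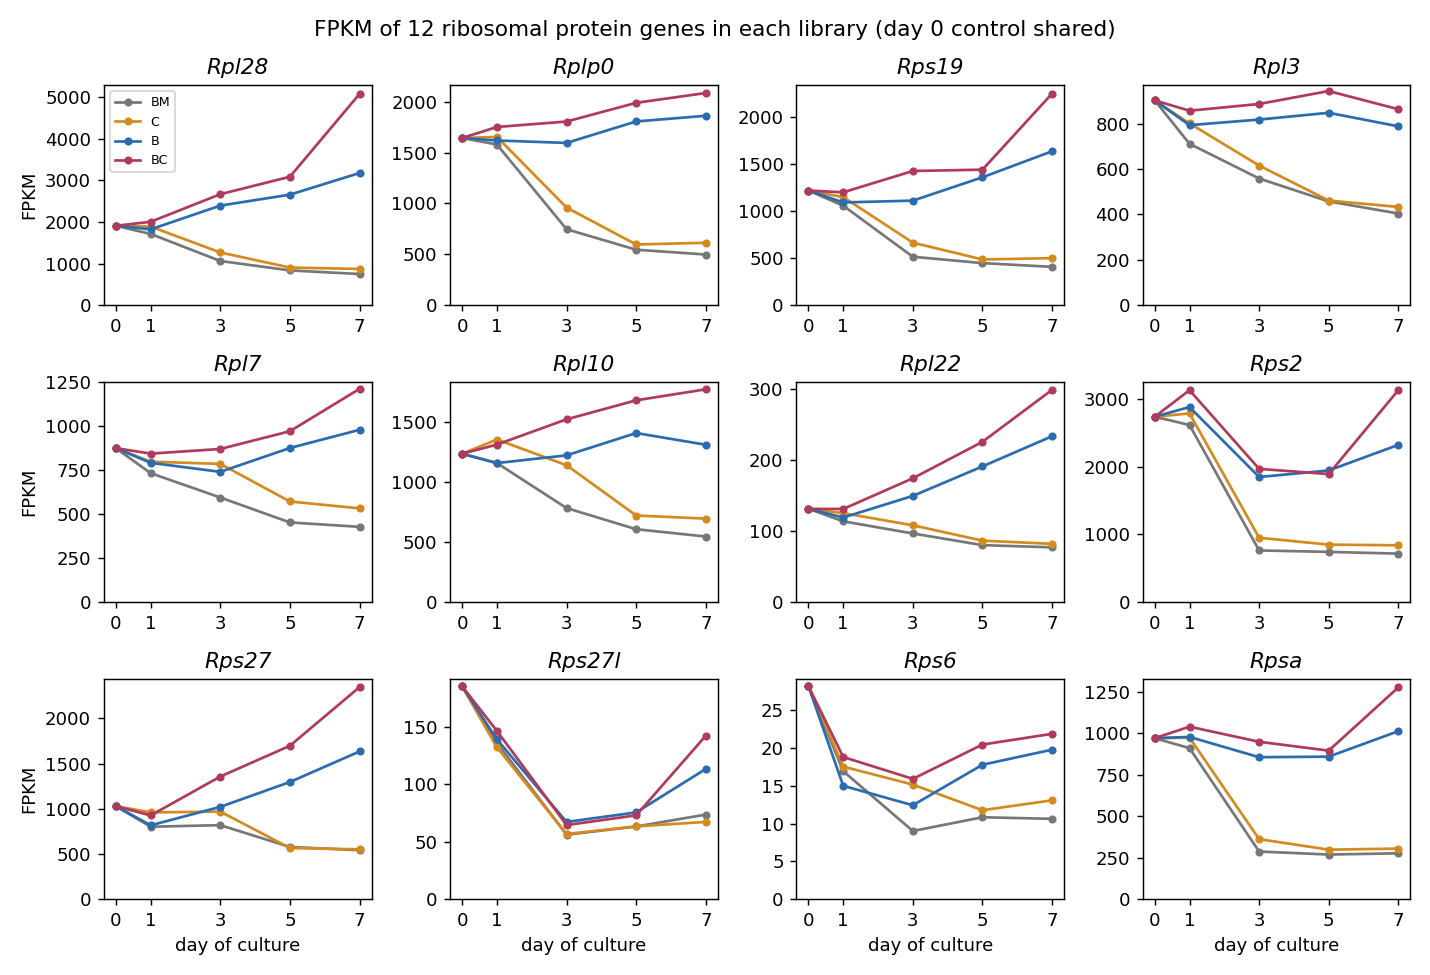
FPKM of 12 ribosomal protein genes in each library against the day of culture, each panel with its own axis from 0, with the day 0 control as the shared first point. Most panels part after day 1 as Rpl28 does, which on day 7 is at 749.5 FPKM in BM and 5079 in BC, whereas Rps27l falls in all 4 media to between 56.1 and 67.2 FPKM on day 3.

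Among large subunit members, Rpl28 (GRCm38.p6, chr7:4792965-4794547) had the largest bFGF effect on day 7. Rpl28 was at 1909 FPKM on day 0. In BM it was at 1712, 1063, 836 and 749.5 FPKM on days 1, 3, 5 and 7, and in C at 1890.3, 1268, 905 and 871 FPKM. In B it was at 1824, 2394, 2658 and 3178 FPKM, and in BC at 2006, 2668, 3088 and 5079 FPKM. The libraries with bFGF lay above those without it from day 3 on, and the fitted log2 fold change on day 7 was 2.88 ± 0.15 (SE, adjusted p = 7.81e-09). Rpl38 (chr11:114667818-114672333), whose product is known for its part in translating certain Hox mRNAs, was at 256 and 274 FPKM in BM and C and 992 and 1716 FPKM in B and BC on day 7, with a log2 fold change of 2.85 ± 0.17 (SE, adjusted p = 1.81e-08). Rpl12, Rpl13 and Rplp1 followed, at 2.84, 2.82 and 2.80.

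Levels ranged widely between members. On day 0 the 77 tested members ran from 28.2 FPKM for Rps6, whose reads are shared with a copy, and 103 for Rps15a to 2399.6 for Rpl17 and 2739 for Rps2. In BM on day 7 the highest were Rpl17 at 1077 and Rpl41 at 863 FPKM, and in BC on day 7 Rpl17 at 5083 and Rpl28 at 5079 FPKM. Rps2 was the highest on day 0 and stood at 3131 FPKM in BC on day 7, below Rpl28. FPKM is per length, and these levels depend on the length the files use for each gene, which was 5158 bases for Rps15a and 3446 for Rps20 against a median of 711 over the members, and on how reads were shared among near-identical copies.

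The ribosomal stalk, which recruits translation factors to the large subunit, is built from Rplp0, Rplp1 and Rplp2. From 1643 FPKM on day 0, Rplp0 went to 1579, 746, 545 and 498 FPKM in BM on days 1, 3, 5 and 7. The C libraries held 1653, 959, 596 and 613 FPKM on those days. With bFGF the levels were 1618, 1594, 1805 and 1861 FPKM in B and 1751, 1804, 1988 and 2085 FPKM in BC. Its level in BM and C dropped most between days 1 and 3, and in B it was nearly level until then. Rplp1 was at 660.1 and 745 FPKM in BM and C and 2937 and 3766 FPKM in B and BC on day 7. Rplp2 was at 611 and 708 FPKM in BM and C and 2419 and 3181 FPKM in B and BC on that day. The day 7 log2 fold changes were 2.38 ± 0.10 (SE, adjusted p = 4.06e-09) for Rplp0, 2.80 for Rplp1 and 2.62 for Rplp2. Rplp1 was also among the 6 members that departed most from the median member. Its level in BM was 2122 FPKM on day 1 and 687 on day 3, a log2 change of -1.50 without bFGF between those days.

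Rpl5 and Rpl11, which with 5S RNA bind MDM2 when ribosome assembly fails, moved with the rest. Rpl5 was at 326 and 334 FPKM in BM and C and 993 and 1088 FPKM in B and BC on day 7. Rpl11 was at 326 and 400.2 FPKM in BM and C and 1295 and 1773 FPKM in B and BC on that day. For each gene both libraries with bFGF lay above both without it, and the log2 fold changes were 2.19 ± 0.09 (SE, adjusted p = 3.56e-09) for Rpl5 and 2.62 ± 0.11 (SE, adjusted p = 4e-09) for Rpl11.

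Rpl3, a large subunit protein that reaches towards the peptidyl transferase centre, had the smallest bFGF effect on day 7 after Rps6 and Rps27l. Rpl3 stood at 902 FPKM on day 0. On days 1, 3, 5 and 7 BM gave 711, 558, 457 and 404 FPKM and C gave 801, 615, 461 and 433 FPKM. B gave 793, 818, 848 and 788 FPKM on these days, and BC gave 857, 887, 943 and 863 FPKM. In B and BC it stayed within 788 to 943 FPKM throughout. Its day 7 log2 fold change was 1.52 ± 0.08 (SE, adjusted p = 1.03e-08), and it was not called between days 5 and 7 with bFGF (-0.05 ± 0.08 SE, adjusted p = 0.673).

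The members next in order at the small end of the day 7 effect were Rpl7, Rps9, Rpl10, Rpl41 and Rpl14. Rps9 was at 538 and 587 FPKM in BM and C and 1163 and 1452 FPKM in B and BC, a log2 fold change of 1.75 ± 0.11 (SE, adjusted p = 3.13e-08). Rpl41, the shortest ribosomal protein, was at 863 and 1064 FPKM in BM and C and 2025 and 3086 FPKM in B and BC, a log2 fold change of 1.94 ± 0.13 (SE, adjusted p = 5.34e-08). Rpl14 was at 220.0 and 243 FPKM in BM and C and 581 and 756 FPKM in B and BC, a log2 fold change of 2.07 ± 0.10 (SE, adjusted p = 5.54e-09). In each, both libraries with bFGF lay above both without it. The 13 members that did not pass between days 5 and 7 with bFGF included Rpl3, Rpl4, Rpl5, Rpl7a, Rpl10, Rpl10a, Rpl13a, Rplp0, Rps4x, Rps6, Rps9 and Rps20.

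The fitted day 3 effects of Rpl7, Rpl10 and Rps3 lay below that of the median member. Rpl7 was at 595 FPKM in BM and 786 in C on day 3, and at 741 FPKM in B and 872 in BC. Rpl10, which joins the large subunit late in its assembly, was at 785, 1142, 1225 and 1525 FPKM in BM, C, B and BC. Rps3, which lines the mRNA entry channel, was at 531, 694, 658 and 739 FPKM. C thus lay above B for Rpl7 and Rps3 and below it for Rpl10. The bFGF effect on day 3 passed for Rpl7 (0.33 ± 0.10 SE, adjusted p = 0.0186) and Rpl10 (0.62 ± 0.11 SE, adjusted p = 0.000468) and not for Rps3 (0.29 ± 0.12 SE, adjusted p = 0.0556). By day 7 both bFGF libraries lay above both others for the 3 genes, with log2 fold changes of 1.73, 1.85 and 2.08. Rps3 was named after its values were seen.

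**Figure D3:**
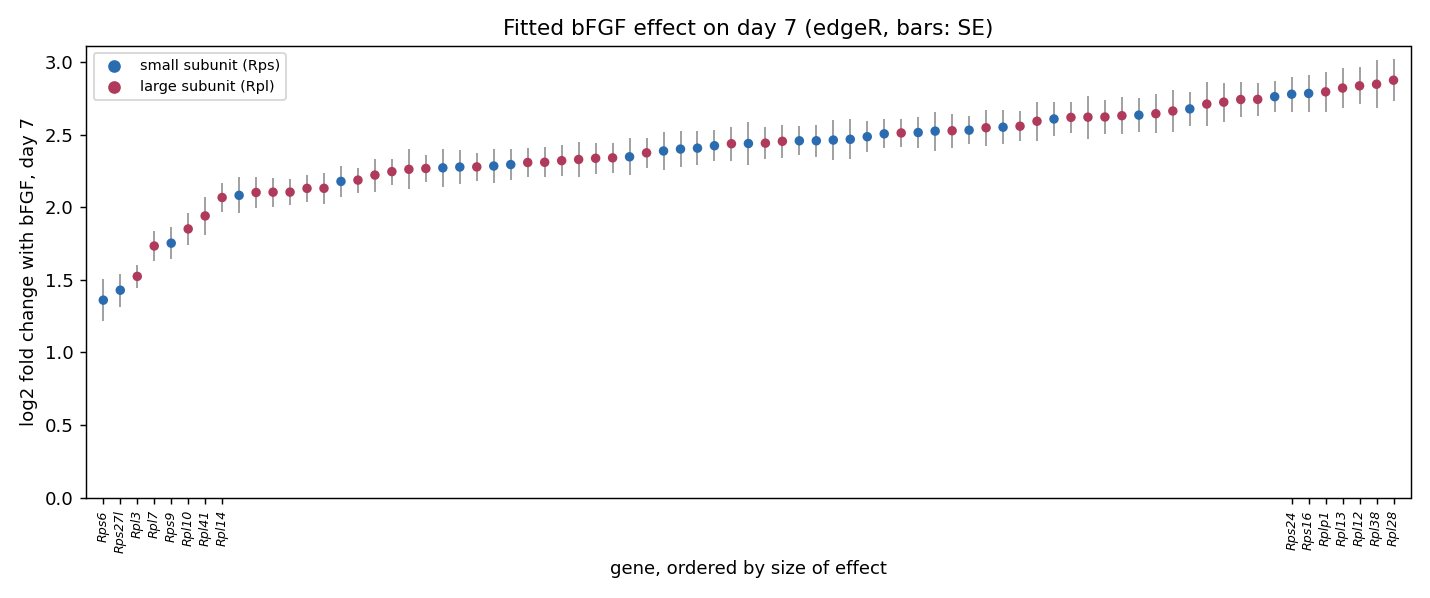
Fitted log2 fold change with bFGF on day 7 for each of the 77 tested members, ordered by size, with bars for the SE and names at both ends. Every value is above 1, from 1.36 for Rps6 to 2.88 for Rpl28, and small (blue) and large (red) subunit genes are mixed along the order.

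In the small subunit, Rps16 and Rps24 had the largest day 7 values, 2.79 and 2.78. Rps16 was at 646 and 763 FPKM in BM and C and 2684 and 4033 FPKM in B and BC on day 7. Rps19 and Rps24 are genes in which loss of function causes Diamond-Blackfan anaemia. Rps19 was at 1218 FPKM on day 0. In BM it was at 1057, 515, 447 and 407 FPKM on days 1, 3, 5 and 7, and in C at 1149, 665, 486 and 499.8 FPKM. In B it was at 1092, 1111, 1359 and 1636 FPKM, and in BC at 1199.6, 1426, 1440.1 and 2249 FPKM. The levels with and without bFGF met on day 1 and were apart from day 3, and the day 7 log2 fold change was 2.64 ± 0.12 (SE, adjusted p = 4.1e-09). By subunit, the day 7 medians on the log2 scale were 2.46 for the small and 2.41 for the large, and those of day 3 0.97 and 0.95. Their difference was not tested.

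Rps2 and Rpsa showed the steepest early fall without bFGF. From 2739 FPKM on day 0, Rps2 went to 2616, 765, 743 and 717 FPKM in BM on days 1, 3, 5 and 7. The C libraries held 2787, 952, 850.2 and 840.3 FPKM on those days. With bFGF the levels were 2881, 1849, 1945 and 2323 FPKM in B and 3130.1, 1969, 1892 and 3131 FPKM in BC. Rps2 fell between days 1 and 3 without bFGF, with a log2 change of -1.64 ± 0.12 (SE, adjusted p = 3.39e-07), and with it (-0.62 ± 0.12 SE, adjusted p = 0.000731), and the bFGF effect was larger on day 3 than on day 1 (1.02 ± 0.17 SE, adjusted p = 0.00147). Rpsa, which doubles as a laminin receptor precursor, was at 912, 288, 269.6 and 277 FPKM in BM on days 1, 3, 5 and 7 and at 1041, 950.0, 896 and 1278 FPKM in BC. It fell by 1.53 on the log2 scale between days 1 and 3 without bFGF (adjusted p = 1.73e-07), and with bFGF it did not pass (-0.13 ± 0.10 SE, adjusted p = 0.286).

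Rps27 and its paralog Rps27l took separate courses. Rps27 stood at 1029 FPKM on day 0. On days 1, 3, 5 and 7 BM gave 802, 819, 578 and 542 FPKM and C gave 961, 969, 567 and 552 FPKM. B gave 818, 1022, 1297 and 1635 FPKM on these days, and BC gave 927, 1358, 1698 and 2347 FPKM. Rps27l was at 185 FPKM on day 0. In BM it was at 136, 56.1, 63.2 and 73.6 FPKM on days 1, 3, 5 and 7, and in C at 132, 56.7, 63.3 and 67.2 FPKM. In B it was at 139, 67.2, 75.5 and 113 FPKM, and in BC at 146, 64.5, 72.9 and 142 FPKM. In BM and C Rps27 differed little between days 1 and 3, below its day 0 level, and Rps27l, which is known as a p53 target, was low on day 3 in all 4 media.

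Between days 1 and 3, Rps27l fell without bFGF (-1.22 ± 0.12 SE, adjusted p = 1.99e-06) and with it (-1.08 ± 0.11 SE, adjusted p = 5.74e-06), and its bFGF effect on day 3 did not differ from that on day 1 at the threshold (0.14 ± 0.16 SE, adjusted p = 0.565). Rps27 did not pass without bFGF (0.04 ± 0.13 SE, adjusted p = 0.8) and rose with it (0.47 ± 0.13 SE, adjusted p = 0.00637). On day 7 both were higher with bFGF, Rps27 by 2.39 and Rps27l by 1.43 ± 0.11 (SE, adjusted p = 2.41e-07) on the log2 scale. Over the 17 libraries Rps27l had the lowest correlation with the median tested member, at r = 0.60, followed by Rps6 at 0.82 and Rps2 and Rps27 at 0.90, and the median over members was 0.98. These correlations rest on libraries that share days and media and are given as a description.

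Rpl22 and Rpl22l1 form another paralog pair, in which the Rpl22 protein is known to repress the Rpl22l1 mRNA. Rpl22 was at 132 FPKM on day 0, at 114, 96.9, 80.5 and 77.4 FPKM in BM and at 131, 175, 226 and 299 FPKM in BC, and its BC level on day 7 was above every other library. Rpl22l1, outside the symbol rule, was at 176 FPKM on day 0, at 185, 118, 77.3 and 63.4 FPKM in BM and at 215, 140.1, 129 and 154 FPKM in BC, so that its levels in both media lay below day 0 on day 7. Both were higher with bFGF on day 7, Rpl22 by 2.28 ± 0.09 (SE, adjusted p = 4e-09), and Rpl22l1 by 1.73 ± 0.18 (SE, adjusted p = 1.86e-06) on the log2 scale.

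The paralogs with a tissue-restricted pattern were at or near 0. Rpl3l, known from skeletal muscle and heart, reached at most 0.38 FPKM, while Rpl3 reached 943. Rpl10l and Rpl39l, known from testis, reached at most 0.15 and 0.20 FPKM, and Rpl32l 0.26 FPKM. These 4 did not pass the filter and were not tested, and their highest expected count in any library was 14.6 reads. Among the broadly expressed members with a paralog, Rpl39 was at 269 and 268 FPKM in BM and C and 965 and 1350.2 FPKM in B and BC on day 7, with a log2 fold change of 2.65. Rpl36a was at 237 and 229 FPKM in BM and C and 821 and 1028 FPKM in B and BC, with a log2 fold change of 2.53. Rpl26 was at 254 and 297 FPKM in BM and C and 969.7 and 1385 FPKM in B and BC, with one of 2.63. Their ranges with and without bFGF did not overlap on that day. Rps4x was at 415 and 446 FPKM in BM and C and 1207 and 1484 FPKM in B and BC on day 7, with a log2 fold change of 2.18, and no Rps4l value was analysed here.

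Reads of 3 members were shared with predicted genes that the files describe as the same protein, so their own levels are uncertain. Rps6, whose product is phosphorylated by S6 kinase, was listed between 9.03 and 28.19 FPKM, while the predicted gene LOC105244208, described as 40S ribosomal protein S6, was at 447 FPKM in BM and 1742 in BC on day 7. Between 1.93% and 4.88% of the counts of the pair fell on Rps6. Rpl21 carried 63.9% to 67.4% of its counts with Gm10045, and Rpl23 31.8% to 38.5% with LOC100044627 and LOC100862455, which had identical values in each library.

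Summed with its copy, Rps6 was at 1252 FPKM on day 0 and on day 7 at 458 and 459 FPKM in BM and C and 1372 and 1764 FPKM in B and BC. The log2 difference was then 1.58 for B over BM and 1.94 for BC over C, against 0.84 and 0.70 for Rps6 alone. For comparison, the median member differed by 1.72 and 2.03. Rps6 alone had the lowest fitted bFGF effect of the 77 members on day 7, and summed it lay nearer to the others. For Rpl21 and Rpl23 the sums moved B over BM from 1.65 to 1.68 and from 1.63 to 1.84.

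With CHIR99021 most members were higher by a small amount that passed the test in 1 model and not in another. In the 8 pairs of libraries that differ in CHIR99021 alone (C and BM, BC and B on each day), 56 of 77 members were higher with it in 8 of 8 pairs, as were 6.65% of all genes. In 7 pairs 13 more members were higher, as were 1084 of 11258 genes. The median member differed by 0.15, 0.27, 0.11 and 0.16 for C over BM on days 1, 3, 5 and 7 (log2(FPKM + 1)), and by 0.14, 0.17, 0.14 and 0.41 for BC over B. The median gene lay between -0.05 and 0.03 in these pairs. This count was added after the values were seen.

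In the model over days 1 to 7, however, no member passed for CHIR99021 (background 0.0532% of all genes higher). The fitted values were all above 0, with a median of 0.21 and a range from 0.04 to 0.37, and 0 had an unadjusted p under 0.05. DESeq2 called 0 members higher. That model holds 1 bFGF effect for all days, so the growth of the bFGF effect stands in its error (biological coefficient of variation 24.7%). With the bFGF effect free on each day, 58 members were called higher with CHIR99021, as were 9.72% of all genes. The call therefore depends on the model.

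Rps28 and Rpl10 had the largest mean over the 8 pairs, 0.33 ± 0.18 and 0.32 ± 0.12 (SD, n = 8 pairs), each higher in 8 of 8. Rps27l had the smallest, 0.02 ± 0.14, higher in 4 of 8. In day 7 BC over B, all 77 members were higher, from 0.09 for Rpl4 to 0.79 for Rpl38. Whether CHIR99021 acted differently with and without bFGF was tested by the interaction, for which no member passed (background 0.00887% of all genes), with a median of 0.06 that lay between -0.29 and 0.36 without single libraries, 0 members at an unadjusted p under 0.05 and 0 called by DESeq2. That model also holds 1 bFGF effect for all days, so the growth of that effect stands in its error (biological coefficient of variation 25.4%). The SE ran from 0.31 for Rps27l to 0.61 for Rpl28. The test could therefore miss differences the size of the CHIR99021 medians and larger ones, and does not decide the question.

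**Figure D4:**
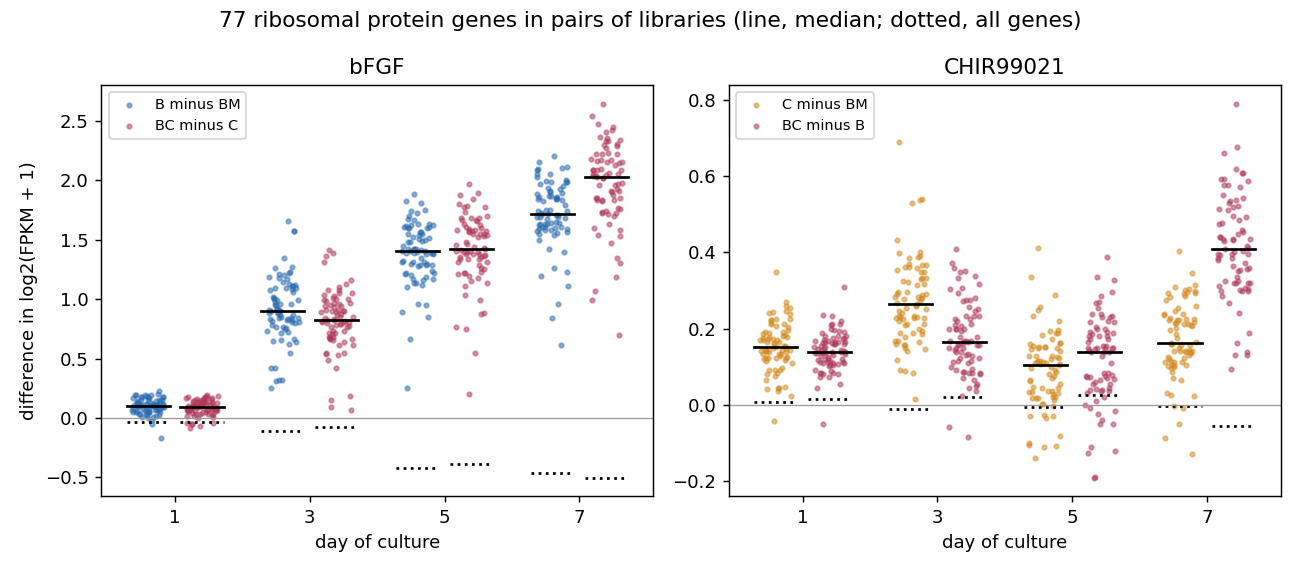
Difference in log2(FPKM + 1) of each of the 77 tested members between libraries of the same day that differ in bFGF alone (left) or CHIR99021 alone (right), with the median member as a solid and the median of all genes as a dotted line. The vertical axes differ: the bFGF medians grow from 0.10 on day 1 to 1.72 (B over BM) and 2.03 (BC over C) on day 7, and the CHIR99021 medians lie between 0.11 and 0.41.

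Ribosomal protein transcripts are short, with a median length of 711 bases against 2818 over all genes tested, and transcript length moved with some of the day 7 differences. Over the members, the difference between BC and B on day 7 had a Spearman rho of -0.45 with length (n = 77 genes, which are not independent), that between BC and C -0.40, that between B and BM -0.26 and that between C and BM 0.04. Over all 11258 genes the values were -0.21, -0.27, -0.27 and -0.23. Among other genes of 500 to 1000 bases the median log2 fold change with bFGF was 0.18, 0.46 and 0.89 on days 3, 5 and 7, against 0.96, 1.86 and 2.43 for the 45 members of that length. The part of length in the result was not tested.

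Other genes of the translation apparatus were read against the shares over all genes, of which 38.8% were called higher and 39.6% lower with bFGF on day 7. Of 18 other mRNAs known for a TOP start, 17 were higher with bFGF on day 7 and 0 lower, and the list's median was 1.73 on the log2 scale (1.18 without scaling). The elongation factor Eef1a1 was higher by 1.84 ± 0.09 (SE, adjusted p = 6.36e-09), and Tpt1, an abundant growth-related protein, by 3.08 ± 0.10 (SE, adjusted p = 1.4e-09). The exception, the initiation factor subunit Eif3l, did not pass (0.25 ± 0.12 SE, adjusted p = 0.0617).

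Of the listed genes for ribosomal proteins or proteins related to them outside the symbol rule, 7 were tested and 6 were higher with bFGF on day 7. Among these were Rps3a1 and Fau, which encodes a ribosomal protein fused to a ubiquitin-like sequence. Rps27a, a member, encodes a fusion with ubiquitin and was at 295 and 339 FPKM in BM and C and 973 and 1387 FPKM in B and BC on day 7. Fau was higher by 2.50 ± 0.12 (SE, adjusted p = 5.03e-09) on the log2 scale, and Rps27a by 2.43 ± 0.11 (SE, adjusted p = 4.06e-09). Rpl7l1 was lower with bFGF, at -0.92 ± 0.09 (SE, adjusted p = 1.38e-06): it was at 49.6, 36.1, 38.9 and 39.5 FPKM in BM on days 1, 3, 5 and 7 and at 57.9, 32.3, 16.3 and 15.3 FPKM in BC.

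Ribosome assembly genes had another time course. On day 1, when no ribosomal protein member passed, 22 of 30 were higher with bFGF and 0 lower, with a median of 0.53 on the log2 scale. Nop56, a core protein of box C/D particles, was higher by 0.70 ± 0.14 (SE, adjusted p = 0.00948), and Gar1, of H/ACA particles, by 0.75 ± 0.14 (SE, adjusted p = 0.00874). On day 3, 8 were higher and 3 lower, and on day 7, 11 and 10, with a median of 0.13. Over all genes, 6.21% were higher on day 1, and 25.4% were higher and 25% lower on day 3. On day 7, 38.8% of all genes were higher and 39.6% lower. Both day 7 counts and the higher count of day 3 are near these shares, and the lower count of day 3 is below its share. Without scaling the day 7 median over the list was -0.39, so its direction depended on the scaling. From day 1 to day 3 these genes fell both without bFGF (27 of 30 fell) and with it (28 of 30), whereas 69 and 5 of the 77 members did. The difference between the lists was not tested.

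The 77 mitochondrial ribosomal protein genes were more mixed, with 51 higher and 9 lower with bFGF on day 7 and a median of 0.61 on the log2 scale, which was 0.06 without scaling, and on day 5 the median was 0.20 with TMM and -0.25 without scaling, so its direction there depended on the scaling. Of the regulators, 14 of 16 were tested, with 6 higher and 6 lower on day 7, close to the shares over all genes. Myc, a transcription factor known to act on ribosome genes, was higher with bFGF on day 1, by 1.10 ± 0.22 (SE, adjusted p = 0.0113), and on day 7, by 2.06 ± 0.24 (SE, adjusted p = 4.9e-06). Eif4ebp1 and Eif4e, the repressor of cap-dependent initiation and its target, were higher on day 7 by 2.74 ± 0.13 (SE, adjusted p = 4.56e-09) and 2.40 ± 0.13 (SE, adjusted p = 1.24e-08). Larp1 did not pass on day 7 (0.02 ± 0.08 SE, adjusted p = 0.818), and Mtor and Rps6kb1 were lower, at -0.74 ± 0.24 (SE, adjusted p = 0.0124) and -0.90 ± 0.09 (SE, adjusted p = 1.4e-06).

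**Figure D5:**
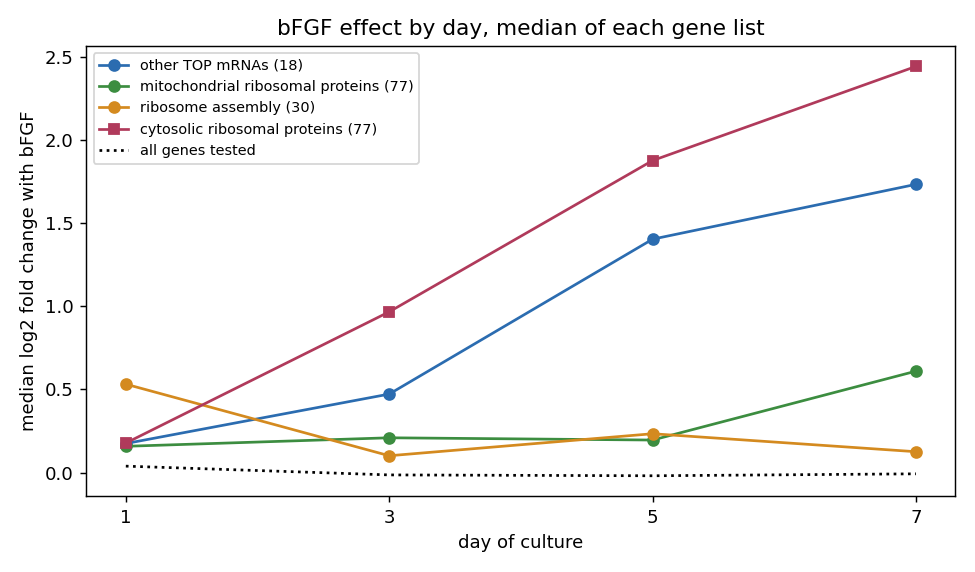
Median fitted log2 fold change with bFGF on each day for 4 gene lists and for all genes tested (TMM scaling). The cytosolic ribosomal protein genes climb from 0.18 to 2.44, whereas the ribosome assembly genes have their highest median, 0.53, on day 1. Without scaling the assembly medians on day 3 (-0.0013), day 5 (-0.20) and day 7 (-0.39) and the mitochondrial median on day 5 (-0.25) are below 0.

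Among the 6647 non-member genes that averaged 10 FPKM or more, the 10 most alike the median member over the 17 libraries (Pearson r of log2(FPKM + 1)) were Gm10045, LOC105244208, Rps3a1, Atp5g2, Mrpl30, LOC100862455, LOC100044627, Rack1, Btf3 and Tmem45a, with r from 0.96 to 0.99. Of these, 4 are the predicted copies above, and Rps3a1 and Rack1 encode further proteins of the small subunit. Atp5g2, a subunit of ATP synthase, was at 305 FPKM on day 0 and at 191 in C and 456 in BC on day 7, and Tmem45a at 50.7, 22.7 and 68.1 FPKM. These values rank genes by likeness only.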

How the data were processed

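Poly(A) RNA of 17 mNRPC libraries was profiled, 1 per medium and day and 1 of day 0. Per the labels, the submitters' processing notes name Bowtie2, RSEM and the mm10 build, and the study's methods name eXpress; versions were not given in the sources used here. The deposited expected counts are estimated numbers of fragments per gene, shared out among similar transcripts, and between 63.9% and 66.7% of them per library were whole numbers. The deposited FPKM values are the authors' own, fragments scaled to transcript length and library depth. Genes that a library does not list were set to 0.

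Expected counts were rounded and genes with a mean of at least 1 FPKM were kept. TMM normalization and edgeR's quasi-likelihood test (edgeR 4.0.16, R 4.3.3) with Benjamini-Hochberg adjustment and a threshold of 0.05 gave every adjusted p. Each SE was the absolute log2 fold change divided by the square root of the F statistic of that test. The effects over days 1 to 7 came from a model with bFGF, CHIR99021 and day (10 residual degrees of freedom), the interaction from the same model with that term (9), and all effects by day from a model of 8 cells (bFGF by day) with CHIR99021 (7). With 1 library per condition, the p-values take libraries of the same bFGF state and day as repeats and measure departures from the model, not the spread between cultures. Day 0 entered no test. Depth was 17571973 to 19428744 expected counts, so counting error is small beside that.

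Alternatives were DESeq2 1.42.0, limma 3.58.1 on log2(FPKM + 1) with and without scaling to the median gene, a pseudocount of 0.1, other filters and leaving out each library. The fits were tested on simulated data. Members and gene lists were chosen with earlier results of these data known. Members were named by the size of the day 7 bFGF effect (8 largest, 8 smallest), by departure from the median member (6), by role and by paralogs, and others where they were the exceptions to a count or the ends of a range. Start sequences came from RefSeq on GRCm38.p6, matched by gene identifier, and proteins were not used here. Some genes are not reported here.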

Additional observations from a re-analysis of the deposited data

Results flagged for a closer look

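The bFGF effect differed between days when the difference itself was tested with edgeR's quasi-likelihood test. It was larger on day 3 than on day 1 for 72 of the 77 tested members, larger on day 7 than on day 1 for 77, and larger on day 7 than on day 3 for 77. Over all genes tested, 13.4%, 31.3% and 25.5% were called in that direction. The medians of these differences over the members were 0.78, 2.28 and 1.44 on the log2 scale with TMM, and 0.75, 1.78 and 0.98 on the log2(FPKM + 1) scale without scaling. Each day has 2 libraries with bFGF and 2 without, which are not repeats of 1 medium.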

How the results depend on the processing

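Under every alternative run, the counts of members called higher with bFGF stayed within 1.5 times of their values on days 3, 5 and 7. So did the count over days 1 to 7, and no count of called members turned direction. The median member's change from day 0 turned only in BC on day 3. It was 0.04 without scaling and -0.0088 scaled to the median gene. Medians of other lists did turn without scaling: for assembly genes from 0.10, 0.23 and 0.13 with TMM to -0.0013, -0.20 and -0.39 on days 3, 5 and 7, for mitochondrial ribosomal proteins from 0.20 to -0.25 on day 5, and for regulators from 0.20 and 0.11 to -0.23 and -0.41 on days 5 and 7. Of the single members, none lost its call on day 7 or over days 1 to 7, and on day 3 there were 15 lost and 6 gained calls among 2002 combinations of member and alternative.

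The counts that moved were those with small changes. For CHIR99021 over days 1 to 7, 58 members (9.72% of all genes) were called with the model of 8 cells against 0. From day 1 to day 3 with bFGF, 6 members rose with no filter and 21 with limma scaled to the median gene, against 12, and 8 fell with no filter and 9 with limma without scaling (pseudocount 1 or 0.1), against 5. From day 3 to day 5 with bFGF, 26 (pseudocount 1) or 27 (0.1) rose without scaling, against 77. The members took 16.3%, 7.14% and 22.4% of summed FPKM in day 0, BM day 7 and BC day 7, and 5.82%, 2.10% and 9.30% of counts of genes past the filter. Scaled to the median gene, the change from day 0 was -1.63 and -1.45 in BM and C and 0.69 and 1.16 in B and BC on day 7. The cause of these shifts was not tested.

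Leaving out 1 library at a time gave 0 to 1 members higher with bFGF on day 1, the 1 without B or BC of day 7, and 73 to 76 on day 3. From day 1 to day 3 with bFGF it gave 3 to 19 higher and 3 to 7 lower. From day 3 to day 5 without bFGF it gave 0 to 54 lower, and from day 5 to day 7 with bFGF 37 to 69 higher. Where this left 1 library of a bFGF state and day, that library was assumed to vary like the others. No paired analysis by replicate number was possible because the labels number no replicates, and the pairs of libraries compared above are matched by day and medium only.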

Other observations

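Values of single genes of the other lists, picked after they were seen, follow. Ncl (nucleolin, a main protein of the nucleolus) was at 348 FPKM on day 0, at 154, 41.9, 48.8 and 59.1 FPKM in BM on days 1, 3, 5 and 7, and at 201, 62.9, 56.7 and 85.3 FPKM in B. Its bFGF effect passed on day 1 (0.51 ± 0.10 SE, adjusted p = 0.0102, edgeR) and on day 7 (1.02 ± 0.10 SE, adjusted p = 1.6e-06), while its level stayed far below day 0 in both media. Polr1b, a subunit of RNA polymerase I, was higher with bFGF on day 1 (0.70 ± 0.11 SE, adjusted p = 0.00303) and lower on day 7 (-1.13 ± 0.12 SE, adjusted p = 3.19e-06). It was at 6.81 and 6.43 FPKM in BM and C and at 1.95 and 2.27 FPKM in B and BC on day 7.

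Tpt1 was at 1735 FPKM on day 0, at 1683, 1991, 1206 and 1171 FPKM in BM on days 1, 3, 5 and 7, and at 1764, 3428, 5362 and 6751 FPKM in B. Ddit4, an inhibitor of mTOR signalling known as a stress gene, was at 6.32 FPKM on day 0 and between 44.0 and 103 FPKM in every cultured library. Myc was at 48.5, 11.7, 12.4 and 19.0 FPKM in BM and at 22.6, 8.79, 6.71 and 11.2 FPKM in C on days 1, 3, 5 and 7, so it was lower in C than in BM on each day. Its levels in B and BC are not given here. Of the 14 regulators tested, Myc among them, 0 were called higher or lower with CHIR99021 over days 1 to 7. That model called 0.0532% of all genes higher and holds the growth of the bFGF effect in its error. The 0 therefore does not decide whether CHIR99021 changed Myc.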
